A study of Mus musculus with 23 samples.

Results

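The comparison set 3 knees of Tet1 mutant mice against 3 knees of wild-type mice, all collected 12 weeks after destabilization of the medial meniscus (DMM). It covers 6 of the 23 libraries of the series, chosen by their labels. The mutant group (KO here) carries the genotype TET-/- and the wild-type group (WT here) the genotype TET1+/+, both on the strain C57BL/6-129. All mice were male and were operated on at 3 to 4 months of age, and RNA came from micro-dissected knee cartilage. The labels give neither the Tet1 allele nor whether the gene was lost in every tissue. The 6 sham-operated knees of the same time point, 3 of each genotype, and the 6 DMM knees collected at 6 weeks are used here only beside the main comparison. One label calls the sham surgery contralateral and another calls the sham controls age-matched, so a sham knee may share its mouse with a DMM knee. Nothing in the labels ties a library to its own animal beyond the word biological replicate, and p-values measure the spread between these libraries.

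TET1 is one of the dioxygenases that convert methylated cytosine in DNA to its hydroxymethylated form, a step toward removal of the methyl mark and a mark of its own at enhancers and gene bodies. DMM frees the medial meniscus from its tibial attachment, which loads the cartilage unevenly and leads over weeks to its erosion, a model of post-traumatic osteoarthritis. Chondrocytes, the cells of articular cartilage, make collagen and aggrecan, and in osteoarthritis they turn to enzymes that degrade both. The deposited row names are UCSC transcript names (uc followed by digits and letters) and names of assembled transcripts (MSTRG), and a search of the reference gene tables matched 0 of these 90308 names. Levels of Tet1, of cartilage matrix genes and of markers of other cell types are therefore not given, and neither the genotype nor the tissue was checked against a gene. Rows of 1 assembled locus were added together, which turned 26550 assembled rows into 12881 loci, and each of the 63758 UCSC rows kept a name of its own. The word locus is used for both kinds, although UCSC rows of the same gene stay apart under it.

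KO libraries were shallower than WT libraries. In M counts, where M stands for 1000000, the column totals were 90, 46.5 and 93 in KO DMM replicates 1, 2 and 3, and 102, 96.2 and 100 in WT DMM replicates 1, 2 and 3. All 3 KO totals lay below all 3 WT totals, and KO replicate 2 held far fewer counts than any other. The means were 76.5 ± 26 M and 99.6 ± 3.13 M (SD, n = 3 each). With every library thinned at random to 46.5 M counts, 47250 ± 918 loci were detected in KO and 47349 ± 787 in WT (SD, n = 3 each; exact two-sided permutation p = 0.7, where 3 against 3 cannot go below 0.1). The number of loci detected therefore did not separate the genotypes at equal depth. Without KO DMM replicate 2 the thinned difference, KO minus WT, was 406.5 loci, without WT DMM replicate 1 it was 247.2, and without KO DMM replicate 1 it was -489.0. The Spearman correlation across the loci tested, which are not independent replicates, was 0.765 to 0.812 among KO DMM libraries, 0.809 to 0.843 among WT DMM libraries and 0.774 to 0.844 between genotypes, so the ranges within and between genotypes overlapped.

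**Figure D1:**
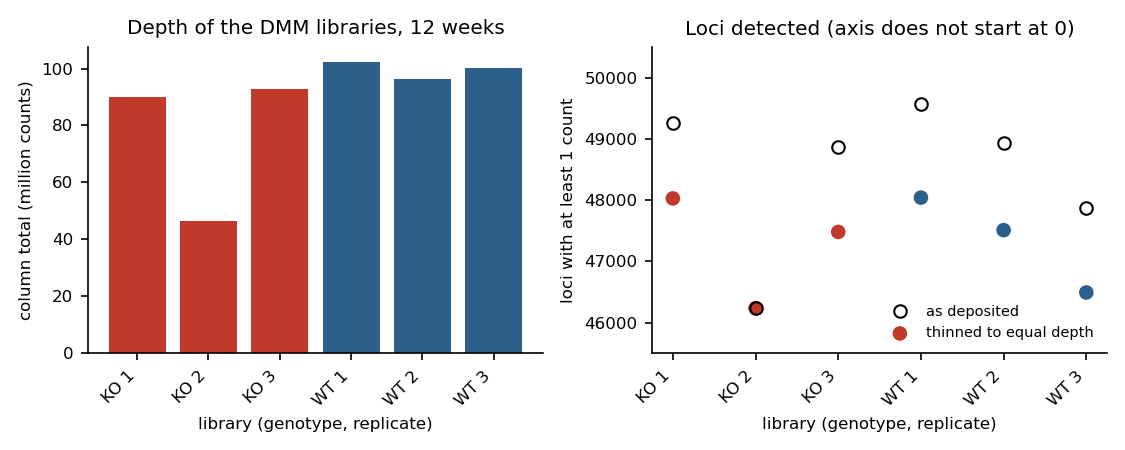
Left, the column total of each of the 6 DMM libraries at 12 weeks in M counts, KO in red and WT in blue. Right, the loci with at least 1 count in each library as deposited (open circles) and after thinning to 46.5 M counts (filled circles), on an axis that does not start at 0. KO replicate 2 has the lowest total, and the thinned values of both genotypes overlap.

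Few loci passed the test between genotypes, and that number does not tell how many loci differed. Of 47228 loci tested, 2 rose in KO DMM (0.00423%) and 4 fell (0.00847%), together 0.0127%, by edgeR's quasi-likelihood test at a Benjamini-Hochberg adjusted p below 0.05. At an unadjusted p below 0.05 there were 1751 loci, or 3.71%. The confidence interval of the log2 difference stayed within 2-fold in either direction for only 16.5% of all loci tested. A locus that did not pass was therefore not shown to be unchanged. The number also depended on the test, since the DESeq2 Wald test called 683 loci. Each of the 6 called loci was at or near 0 in all 3 libraries of a genotype. Both loci that rose were also higher in KO sham knees, and the 4 that fell had counts in all 6 sham libraries. The fit took its spread from all 12 libraries at 12 weeks, sham included. A small spread within the sham groups thus favoured a call, and the sham pattern of called loci is no separate result.

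MSTRG.2642, an assembled locus with a single row, had 3.28, 6.17 and 4.10 CPM (the count divided by the column total, times 1000000) in the KO DMM libraries and 0.107, 0.104 and 0.0999 CPM in the WT DMM libraries. Every KO library lay far above every WT library, and the WT values rest on 10 or 11 counts each. The means were 4.51 ± 1.49 and 0.104 ± 0.00376 CPM (SD, n = 3 each), a ratio of 43.5 and a log2 difference of 5.35 (SE 0.48, edgeR adjusted p = 0.0156). In sham knees the locus stood at 3.16, 4.65 and 2.53 CPM in KO and at 0.142, 0.0898 and 0.0709 CPM in WT, a log2 difference of 5.01 (SE 0.47, edgeR adjusted p = 0.0244). The log2 difference in DMM knees exceeded that in sham knees by 0.34 (SE 0.57), which did not pass (edgeR adjusted p = 1). The 12-week pattern was not seen at 6 weeks, when WT DMM libraries were at 0.197, 4.67 and 5.58 CPM and KO DMM libraries at 5.73, 3.18 and 3.32 CPM, so that the genotypes overlapped.

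The UCSC transcript uc009qcu was found at 5.28, 3.14 and 4.14 CPM in KO DMM and at 0 counts in all 3 WT DMM libraries. Set against a floor of 3 counts per library, KO was at least 139-fold higher (edgeR adjusted p = 0.0340). All 3 KO sham libraries held it as well, at 3.28, 3.68 and 3.61 CPM, and all 3 WT sham libraries were at 0, a bound of 132-fold on the excess in KO (edgeR adjusted p = 0.0289). Across the 12 libraries of this time point the locus thus split by genotype without overlap. At 6 weeks the order was the opposite, with 1.24, 1.72 and 2.01 CPM in WT DMM and 0, 0 and 0.1 CPM in KO DMM. That reversal between the time points was not tested, and the time points were also sequenced in separate pools.

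The transcript uc009fzx fell in KO DMM. The WT DMM libraries held 11.2, 5.61 and 19.8 CPM, from 540 to 1978 counts, and at 0 counts in every KO DMM library, at least 281-fold lower (edgeR adjusted p = 0.0209). Sham knees of both genotypes held it, with 17.1 ± 8.17 CPM in KO and 18.4 ± 7.71 CPM in WT (SD, n = 3 each; edgeR adjusted p = 1). KO DMM was thus the only 1 of the 4 groups at 12 weeks without counts for this transcript. The test of whether the genotype difference was unequal in DMM and sham knees did not pass (edgeR adjusted p = 0.0526). At 6 weeks WT DMM replicates 2 and 3 and KO DMM replicates 1 and 2 were at 0, with 3.83 CPM in WT DMM replicate 1 and 2.89 CPM in KO DMM replicate 3.

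The transcript uc008vvl had the same pattern at a lower level. WT DMM libraries held 1.47, 1.02 and 1.39 CPM, and KO DMM libraries 0 counts, at least 29.8-fold lower (edgeR adjusted p = 0.0156). It was found in all 6 sham libraries, at 1.37 ± 0.263 CPM in KO and 1.51 ± 0.323 CPM in WT (SD, n = 3 each). Here the genotype difference in DMM knees was unequal to that in sham knees (edgeR adjusted p = 0.0312 for the interaction). At 6 weeks it was at 1.14 CPM in WT DMM replicate 3 and at 0 in the other 5 DMM libraries. The other 2 loci that fell, both UCSC transcripts, stood at 0.731 ± 0.0862 and 1.28 ± 0.455 CPM in WT DMM (SD, n = 3 each) and at 0 counts in KO DMM, at least 16.9-fold and 29.4-fold lower (edgeR adjusted p = 0.0307 and 0.0395). All 6 sham libraries held both, and the interaction did not pass for either (edgeR adjusted p = 0.0801 for both).

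**Figure D2:**
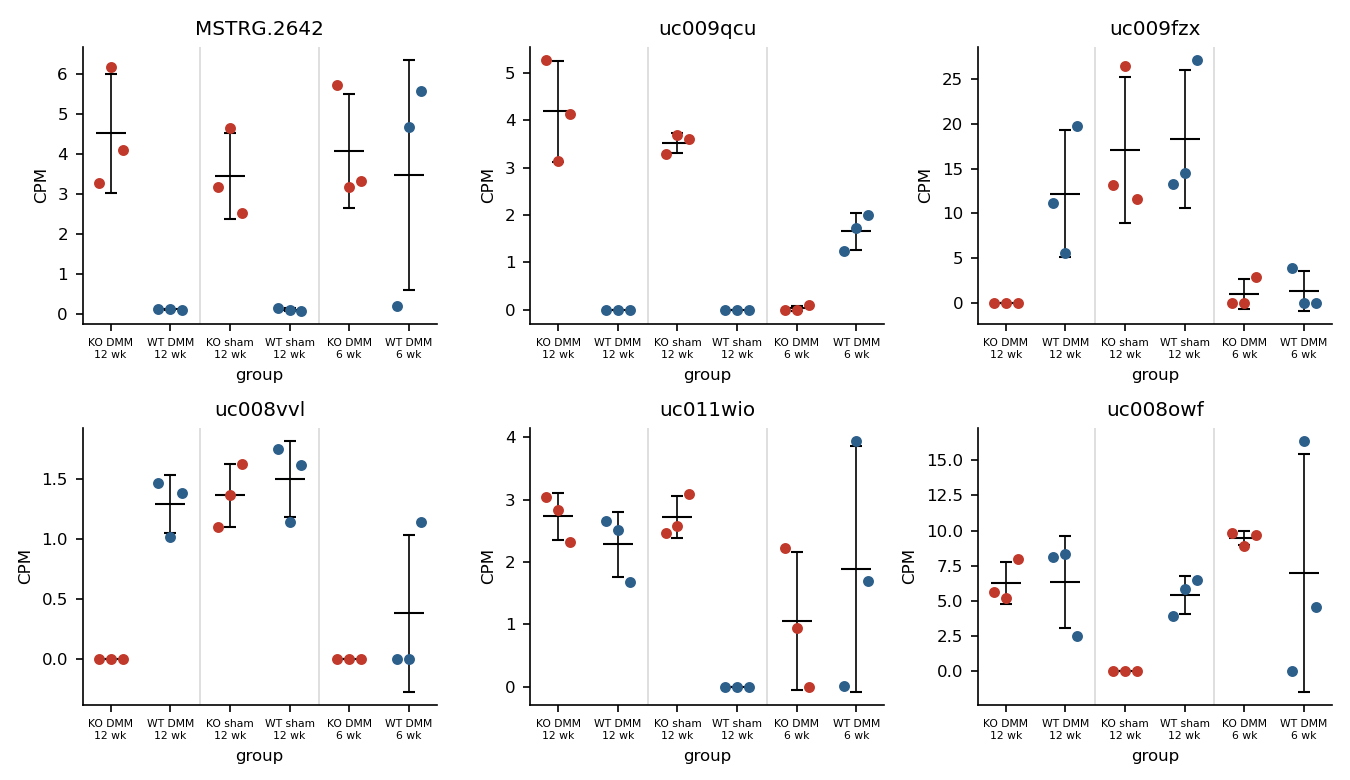
Level in CPM of the 4 named loci of the DMM comparison and of the 2 named loci of the sham comparison in each library (points, KO red and WT blue), with the group mean and SD (bars), n = 3 per group. MSTRG.2642 and uc009qcu split KO from WT in DMM and sham knees at 12 weeks, uc009fzx and uc008vvl are at 0 only in KO DMM among the 12-week groups, and uc011wio and uc008owf are at or near 0 in 1 sham group each and in no other 12-week group.

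The number of calls moved with single libraries. Dropping KO DMM replicate 1, 2 or 3 gave 33, 13 and 24 calls by edgeR. Dropping WT DMM replicate 1, 2 or 3 gave 13, 14 and 0, the last with 1607 loci at an unadjusted p below 0.05. In that last fit the adjusted p was 0.0564 for MSTRG.2642 and uc009qcu and 0.0552 for uc009fzx and uc008vvl by edgeR. Without KO DMM replicate 2 or 3 uc009qcu did not pass either (edgeR adjusted p = 0.0530 and 0.0628). A fit restricted to the 6 DMM libraries had edgeR call 0 loci, with 958 at an unadjusted p below 0.05, and the DESeq2 Wald test on the 12 libraries called 683.

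Thinning all 12 libraries to 46.5 M counts kept the directions and cost some calls. With 3 random draws edgeR called 3, 2 and 5 loci, of which 3, 2 and 4 were among the 6. Counts of uc009fzx in WT DMM after the first draw were 534, 260 and 910, and those of uc008vvl were 76, 49 and 72, against 0 in KO DMM, and both passed in all 3 draws (edgeR adjusted p from 0.0215 to 0.0331). Counts of MSTRG.2642 in WT DMM fell to between 1 and 9 over the 3 draws, and the locus passed in the first (edgeR adjusted p = 0.0215) and not in the others (1 and 0.0597). The transcript uc009qcu, at 146 to 255 thinned counts in KO DMM and 0 in WT DMM, passed in the third draw (edgeR adjusted p = 0.0450) and not in the others (0.0511 and 0.0899). Of 44237 loci tested both ways, 95.8% kept the sign of the difference in the first draw, with a median absolute change in the log2 difference of 0.04.

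Sham knees gave a count of the same order. In KO against WT sham, 6 loci rose and 1 fell, 0.0148% of those tested, with 1898 (4.02%) at an unadjusted p below 0.05 (edgeR). Both loci that rose in KO DMM were among the 6. The transcript uc011wio was at 2.47, 2.58 and 3.10 CPM in KO sham and at 0 counts in all 3 WT sham libraries, at least 102-fold higher (edgeR adjusted p = 0.00409), while DMM knees held 2.74 ± 0.376 CPM (KO) and 2.28 ± 0.529 CPM (WT; SD, n = 3 each; edgeR adjusted p = 1). The transcript uc008owf was at 3.92, 5.82 and 6.52 CPM in WT sham, with 0, 1 and 0 counts in KO sham (edgeR adjusted p = 0.0253), whereas DMM knees held 6.27 ± 1.48 CPM (KO) and 6.34 ± 3.31 CPM (WT; SD, n = 3 each). It no longer passed when KO sham replicate 1 or 3 was dropped, nor when WT sham replicate 1, 2 or 3 was (edgeR adjusted p from 0.0594 to 0.0847). Left out in turn, KO sham replicates 1, 2 and 3 gave 13, 8 and 11 calls and WT sham replicates 1, 2 and 3 gave 2, 4 and 4 by edgeR. In a fit of the 6 sham libraries alone edgeR called 5 loci, 0 of them among the 7, and uc011wio and uc008owf did not pass (edgeR adjusted p = 0.138 for both).

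The genotype difference was unequal between DMM and sham knees at 2 loci, 0.00423% of those tested, with 1508 (3.19%) at an unadjusted p below 0.05 (edgeR). These were uc011wio (edgeR adjusted p = 0.0117), through its absence from WT sham, and uc008vvl (edgeR adjusted p = 0.0312), through its absence from KO DMM. The second locus no longer passed when WT sham replicate 1, 2 or 3, KO sham replicate 2, or replicate 1 or 3 of WT DMM was dropped (edgeR adjusted p from 0.0528 to 0.120). Dropping KO DMM replicate 1, 2 or 3 gave 30, 18 and 13 interaction calls by edgeR, and dropping WT DMM replicate 1, 2 or 3 gave 5, 10 and 1. Dropping KO sham replicate 1 or 3 gave 12 and 8, and dropping WT sham replicate 1, 2 or 3 gave 4, 6 and 4. Of the 1751 loci with an unadjusted p below 0.05 in DMM knees, 60.5% had the same sign in sham knees, and so had 57.4% of all 47228 loci tested.

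Whole-group absence, the form that 5 of the 6 calls took, was counted for all loci. At 12 weeks 25 loci had at least 10 counts in each KO DMM library and 0 in every WT DMM library, and 69 had the opposite pattern, together 0.165% of the 57130 loci detected. In KO DMM the 25 loci ranged from 0.233 to 174 CPM, with a median of 1.4, and in WT DMM the 69 ranged from 0.137 to 1750 CPM, with a median of 2.14. The same count was 134 for KO and WT sham, 96 for KO DMM and KO sham, 103 for WT DMM and WT sham, and 188 for KO and WT DMM at 6 weeks. Genotype in DMM knees gave the lowest number of the 5 comparisons as deposited, though 94 is close to the 96 for KO DMM and KO sham. The 6-week pair was not compared at equal depth. With equal depth the numbers were 75 to 81 for KO and WT DMM, 105 to 110 for KO and WT sham, 79 to 85 for KO DMM and KO sham and 84 to 88 for WT DMM and WT sham over the 3 draws, so that KO DMM with KO sham was then as low.

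The pattern of the 94 loci was looked up in the other knees. In sham knees 4 of them were missing from the same genotype and found in the other, 4.26% of the 94 and 2.99% of the 134 in sham, and 0 had the opposite pattern. Over all 57366 loci detected in sham knees, 0.234% had the pattern in either direction. At 6 weeks 1 had the same direction in DMM knees, 1.06% of the 94 and 0.532% of the 188, and 1 the opposite, beside 0.339% of all 55531 loci detected there. Of the 69 loci missing from KO DMM, 10 were found in all 6 sham libraries, and of the 25 missing from WT DMM, 1 was. The remaining 59 and 24 were absent from at least 1 sham library.

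Absence from single libraries was far more common than absence from a whole group. In KO DMM 3456 loci had 0 counts in 1 replicate and at least 10 in each of the other 2, or 6.35% of those detected in the group, and in WT DMM 2888 did (5.31%). In KO DMM the missing replicate was replicate 2, the shallowest library, for 2004 of these loci, against 807 and 645 for replicates 1 and 3. In WT DMM it was replicate 3 for 1292, against 744 and 852 for replicates 1 and 2. Sham knees at 12 weeks had 2804 such loci in KO and 2744 in WT.

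**Figure D3:**
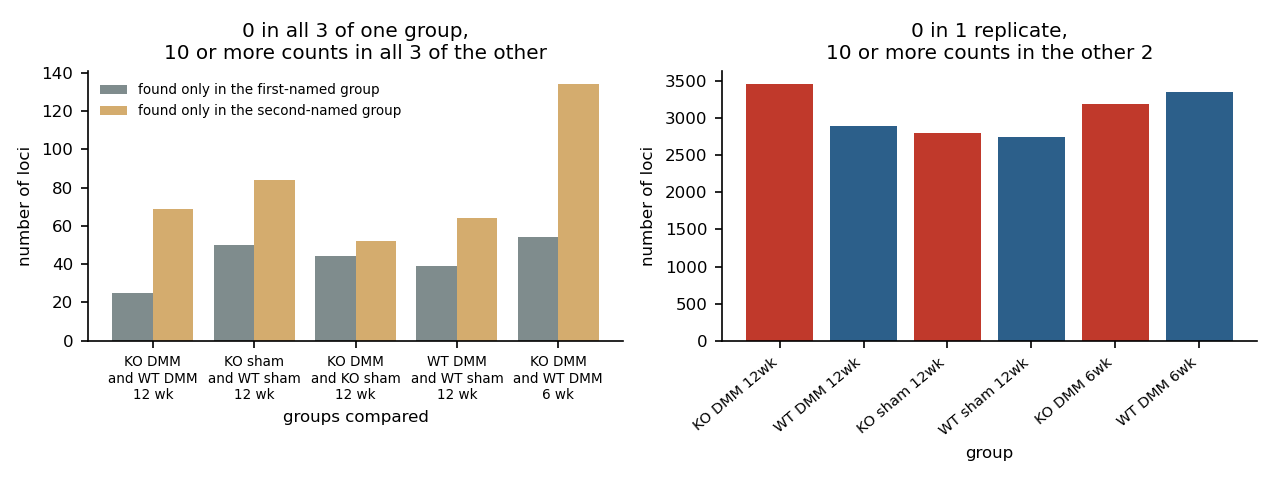
Left, the number of loci with 0 counts in all 3 libraries of a group and at least 10 counts in all 3 of the other, for 5 pairs of groups. Right, the number of loci with 0 counts in 1 replicate and at least 10 in the other 2, in each of 6 groups. KO and WT DMM at 12 weeks give 25 and 69 loci on the left, and single-library absence is between 2744 and 3456 loci per group on the right.

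Differences between genotypes were smaller in the more abundant classes up to 1000 CPM, and not above it. Among loci with a mean of 0.1 to 1 CPM over the 6 DMM libraries the median size of the log2 difference was 0.61, and 30.8% of 13294 loci were past 2-fold. For the 12096 loci of 10 to 100 CPM these values were 0.24 and 7.48%, and for the 1488 loci of 100 to 1000 CPM 0.19 and 3.90%. The 73 loci above 1000 CPM had larger differences again, with 0.27 and 5.48%. All 6 called loci lay below 10 CPM. The 95% interval of the log2 difference stayed within 2-fold in either direction for 37.9% of the loci of 10 to 100 CPM, 56.7% of those of 100 to 1000 CPM, 39.7% of those above 1000 CPM and 16.5% of all loci tested. The median coefficient of variation within a group was 47.0% over all loci, 25.2% at 100 to 1000 CPM and 30.8% above 1000 CPM.

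The groups of CPM values did not overlap at 3422 loci, 7.25% of those tested, which does not show that these loci differ. Even without overlap, 3 against 3 libraries cannot go below an exact two-sided permutation p of 0.1. KO lay above WT at 2111 of the 3422 loci (4.47% of those tested) and below at 1311 (2.78%), and with TMM scaling at 1819 and 1593. The balance shifted with abundance, from 754 above and 383 below at 0.1 to 1 CPM to 11 above and 45 below at 100 to 1000 CPM. The median log2 difference was 0.16 in the first of these classes and -0.11 in the second, and without KO DMM replicate 2, the shallowest library, it was 0.02 and -0.08. Over all loci the median was 0.02.

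Among the 20 most abundant loci, with 2700 to 17200 CPM, 0 were called and 0 had groups that did not overlap, with 4 higher and 16 lower in KO (log2 differences from -0.70 to 0.98, lowest edgeR adjusted p = 1). Of the 73 loci above 1000 CPM, 37.0% had a log2 difference above 0. Groups did not overlap at 2 of the 73, both higher in KO, a share of 2.74% beside 7.25% of all loci tested. The first read 4550, 5270 and 2050 CPM in the KO libraries and 0, 0 and 1370 CPM in the WT libraries, and it was also at 0 in KO sham replicate 2 and WT sham replicate 3. The second read 2020, 2320 and 2110 CPM in the KO libraries and 695, 653 and 557 CPM in the WT libraries, means of 2148 ± 151 and 634.8 ± 70.9 CPM (SD, n = 3 each). Its log2 difference of 1.69 (SE 0.58) did not pass (edgeR adjusted p = 1). In sham knees that locus ranged from 730 to 2120 CPM in KO and from 475 to 2510 CPM in WT, so its values there overlapped across genotypes.

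**Figure D4:**
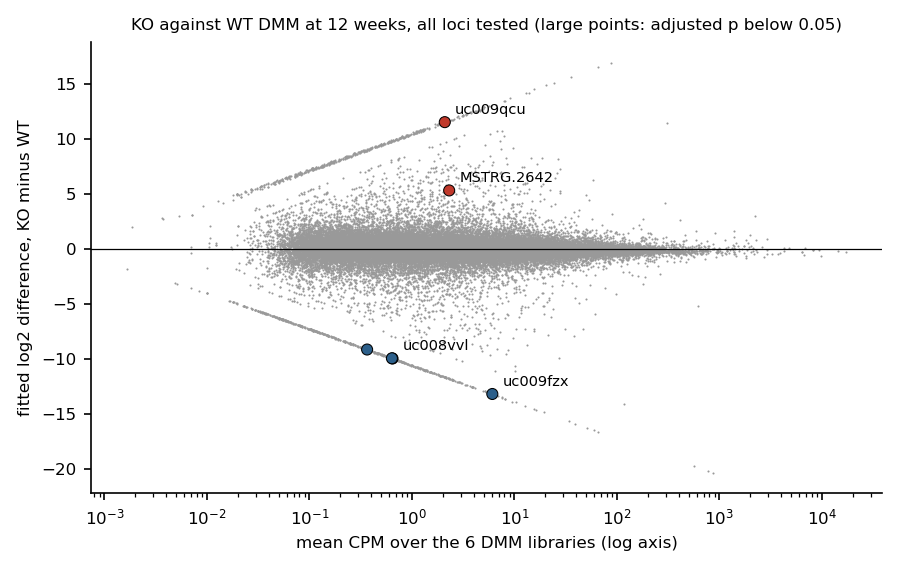
Fitted log2 difference, KO minus WT DMM at 12 weeks, of each of the 47228 loci tested against its mean CPM over the 6 DMM libraries (log axis). Grey points did not pass and large points passed an edgeR adjusted p of 0.05 (red higher, blue lower in KO). The lines of points at the upper and lower edge are loci at 0 in all 3 libraries of a genotype, whose fitted value depends on the prior count.

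Changes reported per row were compared with those of the loci. The authors' deposited table holds 815 rows with an adjusted p below 0.05, 1.43% of the 56830 with such a value, 416 higher and 399 lower in KO. Of the 815 rows, 413 had at least 1 of the 6 libraries at 0, 266 were at 0 in all 3 libraries of a genotype, and 210 were at 0 in some but not all replicates of a genotype. The values did not overlap in 636, or 78.0%, beside 7.25% of all loci tested. These rows were called on the same 6 libraries, so a high share was built in. The median size of the log2 difference in the authors' deposited table was 6.47. All 6 loci called by edgeR were among the loci of these rows.

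Where a locus had several rows, its sum differed less than its called rows. These rows were chosen as called, so some drop in size on adding the other rows was built in. Of the 815 rows in the authors' deposited table, 338 belonged to 286 assembled loci with more than 1 row, and their median log2 size there was 7.25, against 0.38 for the sums of the same loci by edgeR. Of these 338 rows, 261 belonged to a locus whose sum differed by less than 2-fold. At 24 loci 1 row was called higher and another lower in the authors' deposited table, and the sums of 23 of them differed by less than 2-fold. Of the 399 UCSC rows called there, which no sum could change, 15 differed by less than 2-fold in edgeR. The median log2 size of these UCSC rows was 5.82 in the authors' deposited table and 5.77 by edgeR.

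MSTRG.13786, a locus of 2 rows, is an example of rows called in opposite directions. It was chosen after its values were seen, because its called rows of opposite direction held the most counts. Row MSTRG.13786.1 read 107, 50.7 and 89.2 CPM in the KO libraries and 14.7, 12.1 and 20.6 CPM in the WT libraries, a log2 difference of 2.31 in the authors' deposited table. Row MSTRG.13786.2 read 81.5, 43.6 and 85.9 CPM in the KO libraries and 259, 246 and 261 CPM in the WT libraries, a log2 difference of -1.93 in the authors' deposited table. The 2 rows thus moved in opposite directions, each without overlap. Their sum was 152.7 ± 51.1 CPM in KO and 271.2 ± 12.1 CPM in WT (SD, n = 3 each). The log2 difference of that sum, -0.88 (SE 0.35), did not pass (edgeR unadjusted p = 0.0310, adjusted p = 1). Summed values did not overlap, at 189, 94.3 and 175 CPM in KO and 273, 258 and 282 CPM in WT. The sum was thus lower in KO in these 6 libraries, but since it did not pass, a difference between the genotypes was not established. Of the 24 loci with rows called both ways, 2 had a sum at an edgeR unadjusted p below 0.05.

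**Figure D5:**
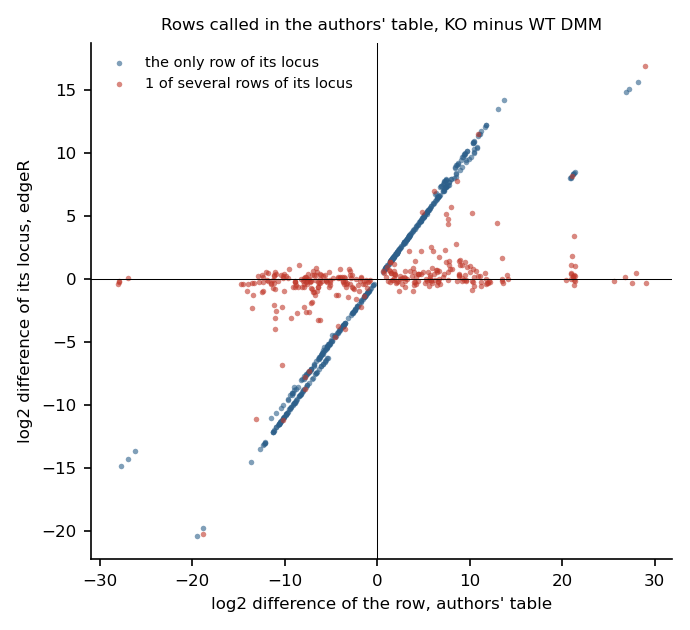
Each point is 1 of the rows called in the authors' deposited table whose locus was tested, with the row's log2 difference from that table on the horizontal axis and the log2 difference of its locus by edgeR on the vertical axis, both KO minus WT DMM. Blue rows are the only row of their locus and lie mostly near the diagonal, except at the far left and far right, where the authors' value is much larger in size than that of edgeR, and red rows share their locus with others and lie mostly near 0 on the vertical axis.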

How the data were processed

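The authors deposited 1 table of expected counts per transcript row (estimated counts, as whole numbers, not normalized) with 23 sample columns, and per the file headers a table of this comparison with a mean normalized signal, a log2 fold change, a Wald score and a p-value with its adjusted form. The submitters' processing notes list build mm10 and the tools DESeq2, HISAT2, Trimmomatic and CASAVA 1.4. The transcript counter was not given in the sources used here, and division of reads among overlapping rows can move counts between them. The deposited means matched the 6 DMM columns in all 90308 rows within a relative 0.0001.

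Counts were summed to 76639 loci. The 12 libraries at 12 weeks were fitted in edgeR 4.0.16 (R 4.3.3) with TMM, filterByExpr by group, a mean for each group, quasi-likelihood tests with robust dispersion, and Benjamini-Hochberg adjustment over all loci tested (common dispersion 0.858). DESeq2 1.42.0, thinning and the other alternatives are in the closing section. The count test and the thinning were run on simulated data. Recovery of changed loci was required only at a dispersion far below 0.858, so recovery at the spread of these data is not given here. Printed CPM use column totals. Floors use 3 counts per library, between 0.0266 and 0.0645 CPM, and cover counting error only. Replicates differed far beyond counting error (chi-square per degree of freedom at least 306). The members, lists and tests were chosen with earlier results of these data known.

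Loci were named by a fixed rule: of those called with groups that do not overlap, the 2 per direction with the highest mean CPM, and for sham and for the interaction the 1 per direction with the smallest p. The gene and cell type lists of the plan were not used, since no row name was paired with a gene.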

Additional observations from a re-analysis of the deposited data

Results flagged for a closer look

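The difference between genotypes was unequal in DMM and sham knees at 2 loci by the interaction test. For uc011wio the fitted log2 difference in DMM knees minus that in sham knees was -10.8 (edgeR adjusted p = 0.0117), with 0 counts in the 3 WT sham libraries and 1.68 to 3.10 CPM in the other 9 libraries at 12 weeks. For uc008vvl it was -9.74 (edgeR adjusted p = 0.0312), with 0 counts in the 3 KO DMM libraries and 1.02 to 1.75 CPM in the other 9. Both fitted values depend on the prior count and are no bounds.

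The transcript uc009qcu moved in opposite directions at the 2 times in DMM knees. KO minus WT was 4.18 CPM at 12 weeks and -1.62 CPM at 6 weeks, with groups that did not overlap at either time, and this difference between the times was not tested.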

How the results depend on the processing

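The calls rest on a spread shared over 12 libraries. For KO against WT DMM, with 6 calls, DESeq2 called 683 loci, thinned data 3 and 2 in the first and second draw, and edgeR 0 with only the 6 libraries compared (958 at an unadjusted p below 0.05). Leaving out 1 library each gave 0 to 33. Of the 683 DESeq2 calls, 367 were at 0 in some but not all replicates of a genotype, a pattern whose share over all loci is not given here. Groups did not overlap at 305 of the 683, beside 7.25% of all loci tested. The calls were made on the same libraries, so neither count is a separate result. For KO against WT sham, with 7 calls, DESeq2 called 678, the second thinned draw 4 and unsummed rows 3, the 6 sham libraries alone 5 (0 shared with the 7), and leaving out 1 library each gave 2 to 13. For the interaction, with 2 calls, DESeq2 called 731, the first thinned draw 1, the third 0 (1376 at an unadjusted p below 0.05) and unsummed rows 1, and leaving out 1 library each gave 1 to 30. A replicate block gave 0 edgeR calls in all 3 comparisons (1192, 1233 and 1049 at an unadjusted p below 0.05). That block was shared by KO and WT libraries of the same number. A pairing of DMM and sham knees within a genotype was not fitted, so the interaction test treats these knees as independent. The labels do not say that a number marks a shared mouse, and the deviations of same-numbered KO and WT DMM libraries correlated at -0.106 to -0.0455, with 0 of 3 KO libraries closest to their own number. Same-numbered DMM and sham libraries correlated at 0.0394 to 0.187 in KO and 0.0416 to 0.0704 in WT, a pairing the contralateral label would allow. The difference in loci detected at equal depth was -99.33, but 223.3 with at least 10 counts required, and from -526.8 to 406.5 without 1 library. Counts with DESeq2 size factors, no filter, or a mean of at least 1 CPM stayed within 1.5 times. Over all alternatives no named locus changed direction, and the adjusted p ranged from 1.88e-29 to 1 for MSTRG.2642, from 5.58e-16 to 1 for uc009qcu, from 6.59e-17 to 0.341 for uc009fzx and from 9.25e-11 to 0.301 for uc008vvl, the lowest by DESeq2. The cause of these changes was not tested.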
